A study of Mus musculus with 22 samples.

Results

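The 47 genes described here encode the enzymes and transporters of fatty acid oxidation, the carnitine shuttle and ketone body use. They were chosen by name from the count table of the testes RNA-seq experiment, which holds 17931 gene symbols, and all 47 had a row. RNA of whole testes was profiled from 3 WT males and 3 MLX KO males aged 7 months. The WT males were fertile breeders and littermates of the MLX KO males, 1 pair per replicate number. MLX (MAX-like protein X) is a basic helix-loop-helix leucine zipper transcription factor that pairs with MondoA and ChREBP at genes of glucose and lipid metabolism. The MLX KO males carried a constitutive deletion: exons encoding the bHLHLZ region had been removed from a 129S4 embryonic stem cell allele with Meox2-Cre, and the Cre allele was then crossed out. Lines from separate stem cell clones were made, and which of them gave these testes is not given in the sources used here. The deletion was thus not limited to a cell type of the testis. The count for *Mlx* covers the whole gene, and its log2 fold change (LFC, MLX KO against WT) of -0.18 (SE 0.14, adjusted p = 0.326) is no check of the genotype labels.

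Fatty acids are burned in steps. Acyl-CoA synthetases activate them, the carnitine shuttle carries long acyl chains across the inner mitochondrial membrane, and the matrix enzymes shorten them in repeated rounds of dehydrogenation, hydration, a second dehydrogenation and thiolysis. Electrons leave through the electron transfer flavoprotein, peroxisomes handle very long and branched chains, and ketone bodies made from acetyl-CoA are turned back into acetyl-CoA by the succinyl-CoA transferases (SCOT). In the seminiferous tubule, Sertoli cells are known to use fatty acids from engulfed residual bodies, and developing sperm carry carnitine acetyltransferase and their own forms of SCOT.

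Of these 47 genes, 26 rose in MLX KO testes, all by less than 2-fold, and 8 fell, with *Acsl1*, *Crat*, *Oxct2a* and *Oxct2b*, the most abundant per kilobase of transcript in WT testes, among the latter. Of the 47 genes, 46 passed the filter on low counts, and 34 passed the threshold of 0.05 on the adjusted p of the quasi-likelihood test in edgeR, with adjustment over all 14640 genes tested. Across all genes tested the same test called 45.4%, with 24.8% higher and 20.6% lower. Here 26 genes, or 56.5%, were higher and 8 genes, or 17.4%, were lower. The 12 genes not called are each given below with their LFC. The median LFC was 0.27, against 0.03 over all genes tested. Within the 3 littermate pairs the median was 0.29, 0.36 and 0.25. The median of the 26 higher genes was 0.70 and that of the 8 lower genes was -0.27, and 0 genes passed an LFC of 1 in either direction. Of the genes tested, 17 were called higher with an LFC over 0.5, a size that 16.2% of all genes reached.

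Levels are CPM (counts scaled to a common library size) after adjustment with TMM factors, and overlap between groups was judged on these. The 3 MLX KO libraries lay above the 3 WT libraries for 27 of the 47 genes and below them for 8. The same held for 30.3% and 25.9% of all genes tested. All 34 called genes were among these 35, and the other was *Hadhb*. KO1 stood nearer to WT than the other MLX KO libraries. It had the lowest CPM of the 3 for 21 of the 26 higher genes and the highest for all 8 lower genes. Without KO1, 25 of the genes were higher and 8 were lower. Without KO2 or without KO3, 5 were lower. Scaling by library size alone moved the median of all genes from 0.03 to 0.16 and gave 28 higher and 4 lower genes here, with 5343 higher and 1268 lower over all genes.

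**Figure D1:**
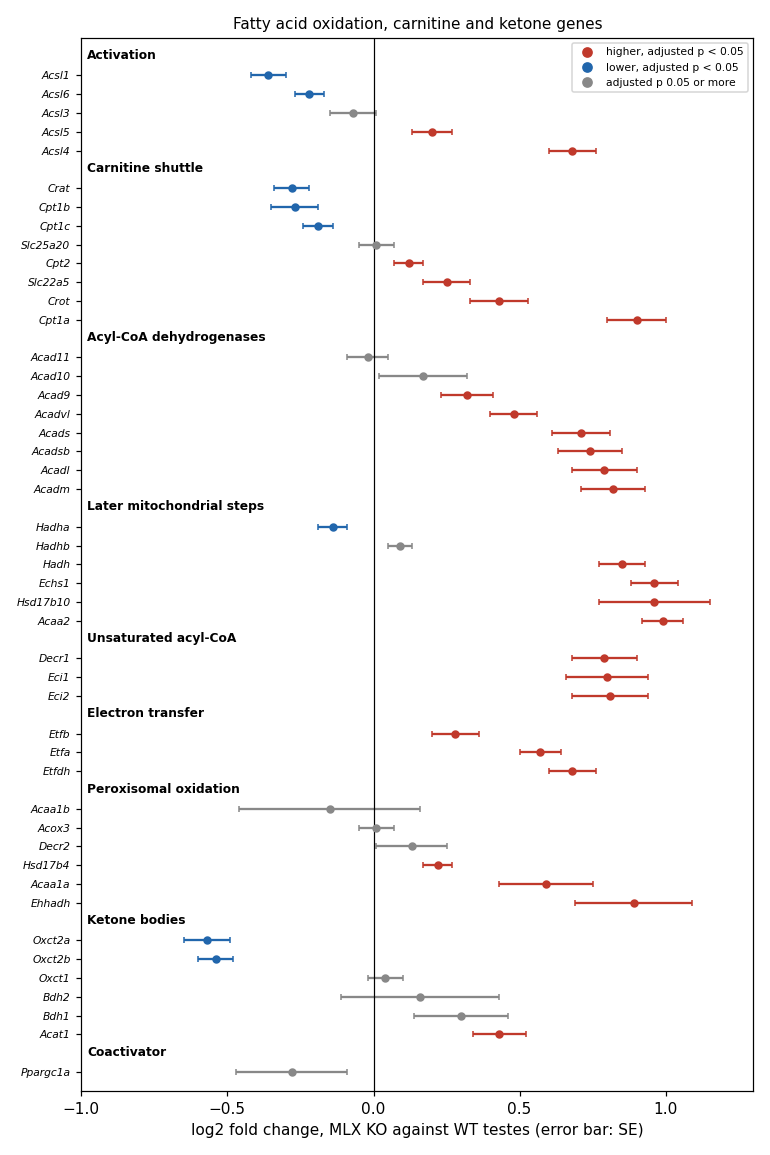
LFC of each of the 46 genes tested, MLX KO against WT testes, on the x axis, with genes grouped by role on the y axis. Points are the fitted LFC and bars are 1 SE, with red for genes called higher, blue for genes called lower and grey for genes not called. The genes called higher reach 0.99 for Acaa2 on the right, and those called lower reach -0.57 for Oxct2a on the left.

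Whole testes hold many cell types, and fewer cells of a type cannot be told apart from less RNA per cell in bulk tissue. Cell type markers moved with genotype. All 10 Sertoli cell markers rose, with a median LFC of 0.67, and their summed level went from between 1050 and 1090 CPM in WT to between 1590 and 1910 CPM in MLX KO testes. All 8 Leydig cell markers rose, with a median LFC of 1.16, from a sum between 865 and 885 CPM to one between 1860 and 2450 CPM. All 9 macrophage markers rose, with a median LFC of 1.28 and sums from 86.3 to 92.0 CPM in WT and from 185 to 190 CPM in MLX KO testes. All 12 elongating spermatid markers fell, with a median LFC of -0.54, from sums between 23900 and 24900 CPM to sums between 14200 and 17400 CPM.

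Earlier germ cells differed less. Of the 8 round spermatid markers 7 were lower (median LFC -0.25, sums from 919 to 950 CPM in WT and from 785 to 806 CPM in MLX KO testes). Of the 12 spermatocyte markers 8 were lower (median LFC -0.16, sums from 1890 to 1950 CPM and from 1660 to 1740 CPM). Of the 7 spermatogonia markers 2 were higher and 1 was lower (sums from 122 to 124 CPM and from 136 to 147 CPM). The Leydig and elongating spermatid markers moved least in pair 1: the Leydig medians in the 3 pairs were 0.61, 1.24 and 1.13, and those of elongating spermatids were -0.39, -0.58 and -0.71. The part of these cell types in the changes below was not tested.

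Markers of blood vessels and of the tubule wall moved less uniformly. Endothelial markers (2 of 7 higher, 0 lower) summed to between 21.4 and 25.5 CPM in WT and between 35.9 and 39.3 CPM in MLX KO testes. Peritubular myoid markers (4 of 6 higher, 1 lower) summed to between 310 and 369 CPM and between 309 and 325 CPM. Most of that sum was *Actg2*, the marker that was lower, with means of 267 CPM in WT and 204 CPM in MLX KO testes. The sum therefore says little about the other myoid markers. Markers of tissues that store or burn much fat had low levels. The adipocyte markers, 1 of 7 higher and 1 lower, summed to between 8.78 and 14.2 CPM in WT and between 8.41 and 12.7 CPM in MLX KO testes, and the skeletal muscle markers, 0 of 6 higher and 1 lower, to between 2.32 and 3.67 CPM and between 1.91 and 2.89 CPM.

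**Figure D2:**
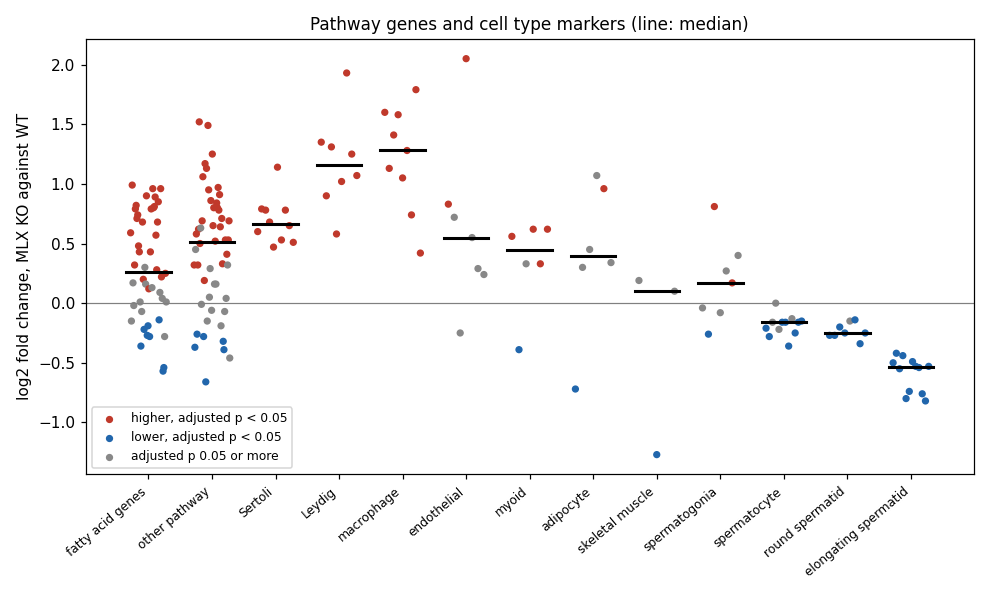
LFC (MLX KO against WT) on the y axis for every tested gene of each list on the x axis: the fatty acid oxidation, carnitine and ketone genes, other genes of this and related pathways, and 11 lists of cell type markers. Each point is a gene, coloured by its call, and the black line is the list's median, which is 0.27 for the genes described here, 1.16 for Leydig markers and -0.54 for elongating spermatid markers.

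Of the 8 genes that fell, 7 were among the 10 with the highest levels, *Cpt1b* being the exception. Levels were compared between genes as CPM per kilobase of the principal transcript. The 10 genes with the highest level in WT testes were *Acsl1* (262), *Crat* (213), *Oxct2b* (111), *Oxct2a* (91.6), *Hadha* (86.8), *Hadhb* (67.5), *Acsl6* (50.6), *Cpt1c* (37.5), *Cpt2* (33.0) and *Etfb* (25.9). Of these 10, 7 were lower and 2 were higher in MLX KO testes. Of the other 36 genes tested, 1 was lower and 24 were higher. The cut at 10 genes was made after the values were seen, the WT level is part of the LFC, and no test was made. Beside these counts, 24.8% of all genes tested were higher and 20.6% were lower. Those shares were not worked out by level, so whether abundant genes in general were lower is not known. The summed CPM of all 47 genes was 3870, 3960 and 4020 in WT against 3790, 3720 and 3620 in MLX KO testes. *Acsl1* and *Crat* alone made up 48.5%, 48.5% and 48.8% of that sum in WT against 43.3%, 40.3% and 40.4% in MLX KO testes. The other genes summed to 1990, 2040 and 2060 CPM in WT and to 2150, 2220 and 2160 CPM in MLX KO testes, without overlap.

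**Figure D3:**
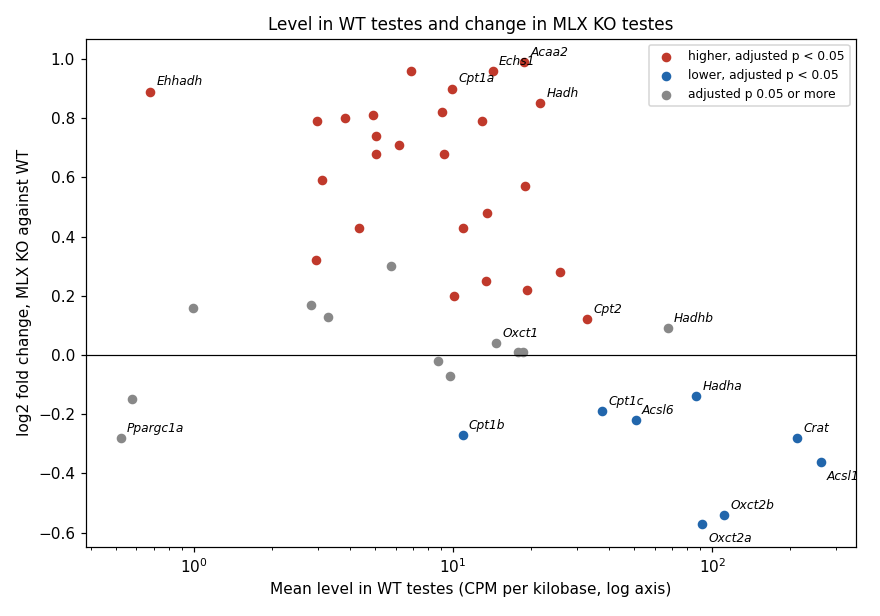
Mean level in WT testes (CPM per kilobase of principal transcript, log x axis) and LFC (MLX KO against WT, y axis) of the 46 genes tested, coloured by call. Genes above 30 CPM per kilobase lie at or below an LFC of 0.12, and the genes called higher with the largest LFC lie below 25.

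Of the 5 acyl-CoA synthetases, which activate fatty acids, 2 were higher and 2 were lower. The shares over all genes tested, 24.8% higher and 20.6% lower, stand beside this count and those of the other steps below. Counts in groups this small are descriptions, and no test was made on them. *Acsl1*, the long-chain form best known from heart and fat, was the most abundant of all 47 genes. It had counts of 19043, 15917 and 18550 in the WT libraries, given here as elsewhere in the order of replicates 1 to 3, against 16468, 14158 and 14097 in those of MLX KO. Relative to depth, each MLX KO library was below every WT library, and the mean fell from 1020 ± 22.3 to 793 ± 52.3 CPM (SD, n = 3), an LFC of -0.36 (SE 0.06, adjusted p = 0.000464). *Acsl6*, a form that prefers polyunsaturated fatty acids, had an LFC of -0.22 (adjusted p = 0.00699), and one of -0.08 (adjusted p = 0.150) with library size alone.

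*Acsl4*, which favours arachidonic acid, rose. It had 528, 420 and 446 counts in the WT libraries against 756, 824 and 816 in those of MLX KO. All MLX KO libraries were above WT, with means of 26.6 ± 1.35 and 42.6 ± 3.34 CPM (SD, n = 3) and an LFC of 0.68 (SE 0.08, adjusted p = 5.93e-05). *Acsl5*, a mitochondrial and endoplasmic reticulum form, was called higher with an LFC of 0.20 (adjusted p = 0.0391), a call lost on leaving out any library other than KO3 (adjusted p from 0.0535 to 0.104). *Acsl3*, found on lipid droplets, had an LFC of -0.07 (adjusted p = 0.505). The summed level of the 5 synthetases, most of it *Acsl1*, went from 1260 ± 21.9 to 1030 ± 62.5 CPM (SD, n = 3).

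In the carnitine shuttle 4 of 8 genes were higher and 3 were lower, beside 24.8% and 20.6% of all genes tested. *Cpt1a*, the liver form of carnitine palmitoyltransferase 1 and the enzyme that controls entry of long acyl chains, rose most. It had 822, 622 and 806 counts in the WT libraries against 1294, 1623 and 1561 in those of MLX KO. The groups did not overlap, and KO1 was the lowest of the MLX KO libraries. The mean went from 42.8 ± 2.99 to 79.7 ± 11.8 CPM (SD, n = 3), a 1.86-fold rise (LFC 0.90, SE 0.10, adjusted p = 5.37e-05).

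The other CPT1 genes fell. *Cpt1c*, the form known from neurons, had 1885, 1708 and 1879 counts in the WT libraries against 1869, 1598 and 1709 in those of MLX KO. Raw counts overlapped, but after adjustment with TMM factors every MLX KO library was lower. The means were 105 ± 4.75 and 91.8 ± 4.16 CPM (SD, n = 3), with an LFC of -0.19 (SE 0.05, adjusted p = 0.0146). That call was lost without WT2, KO2 or KO3 (adjusted p of 0.0678, 0.0690 and 0.0540). *Cpt1b*, the muscle form, had 619, 488 and 554 counts in the WT libraries against 559, 427 and 498 in those of MLX KO. Its MLX KO libraries were lower after adjustment with TMM factors, from 31.6 ± 0.872 to 26.3 ± 2.61 CPM (SD, n = 3), with an LFC of -0.27 (SE 0.08, adjusted p = 0.0182). The call was lost without WT1, KO2 or KO3 (adjusted p of 0.0625, 0.0861 and 0.0529). Of the exon bases of *Cpt1b*, 81.4% also belong to *Gm44502* on the same strand, so its reads could have been assigned to either. With library size alone neither was called, at LFCs of -0.05 for *Cpt1c* and -0.13 for *Cpt1b*.

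The shares of the CPT1 isozymes were set side by side. Per kilobase, *Cpt1a* made up 17.6%, 15.6% and 17.8% of CPT1 counts in WT against 25.8%, 34.3% and 31.6% in MLX KO testes, from a mean of 17.0% ± 1.22 to 30.6% ± 4.35 (SD, n = 3). The share of *Cpt1c* went from 64.2% ± 1.82 to 54.4% ± 2.82 and that of *Cpt1b* from 18.8% ± 0.917 to 15% ± 1.58 (SD, n = 3). In none of the 3 did the genotypes overlap, and each gave p = 0.1 in a two-sided exact permutation test, the smallest that 3 against 3 libraries allow. No share could therefore pass a threshold of 0.05. Shares were compared for 13 genes of 4 families, and 9 of the 13 did not overlap between genotypes. Within a family a rise in the share of a gene lowers the others, so these are not separate observations. For levels, the MLX KO libraries lay above WT for 30.3% and below for 25.9% of all genes tested. *Cpt1c* stayed the most abundant CPT1 gene per kilobase in all 6 libraries.

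*Crat*, carnitine acetyltransferase, which moves acetyl groups between CoA and carnitine and is abundant in sperm, had 16573, 14254 and 16239 counts in the WT libraries against 15402, 12932 and 13531 in those of MLX KO. Relative to depth every MLX KO library was lower, with means of 899 ± 22.0 and 742 ± 45.4 CPM (SD, n = 3) and an LFC of -0.28 (SE 0.06, adjusted p = 0.00207). *Cpt2*, which reforms acyl-CoA in the matrix, had 1487, 1197 and 1420 counts in the WT libraries against 1637, 1532 and 1628 in those of MLX KO. Its libraries did not overlap at 78.2 ± 1.98 and 85.1 ± 0.930 CPM (SD, n = 3), and its LFC was 0.12 (SE 0.05, adjusted p = 0.0491). With the pair as a block the adjusted p was 0.0785, and the call was also lost on leaving out any library but KO1 (0.0742 to 0.175).

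*Crot*, the peroxisomal carnitine octanoyltransferase, was higher by an LFC of 0.43 (adjusted p = 0.00425). *Slc22a5*, the OCTN2 carnitine importer of the plasma membrane, was higher by an LFC of 0.25 (adjusted p = 0.0278). Its call was lost on leaving out any library but KO1 (adjusted p from 0.0526 to 0.111), and 26.1% of its 50-base stretches also occur in *Slc22a21*. *Slc25a20*, the carnitine-acylcarnitine exchanger of the inner membrane, had an LFC of 0.01 (adjusted p = 0.880).

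**Figure D4:**
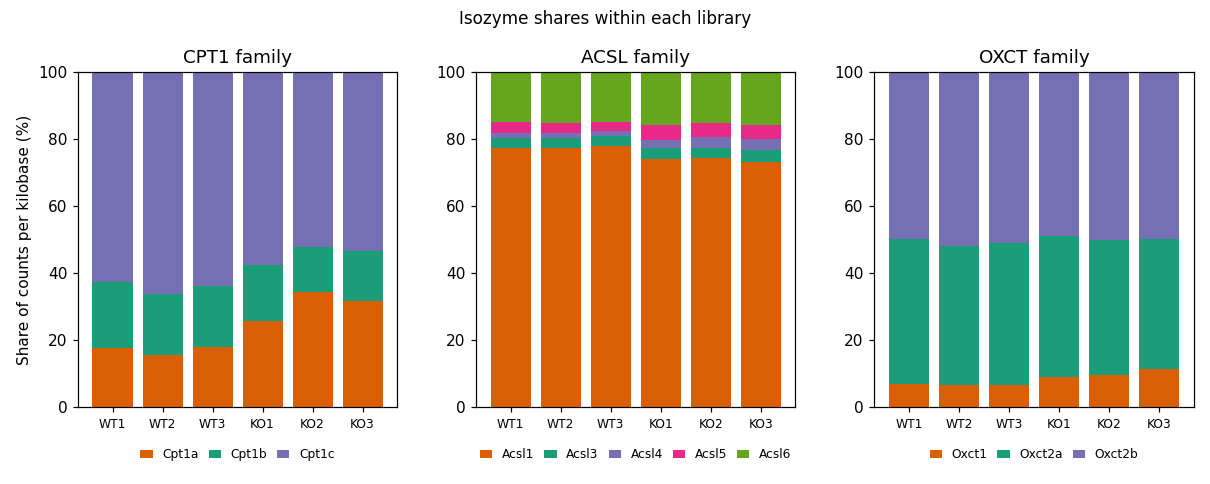
Share of counts per kilobase (y axis, %) taken by each isozyme in each of the 6 libraries (x axis) for the CPT1, ACSL and OXCT families. Each bar is 1 library and its colours are the genes of the family. The Cpt1a share is between 15.6% and 17.8% in the WT bars and between 25.8% and 34.3% in the MLX KO bars, and the bars of the OXCT family keep similar shares of Oxct2a and Oxct2b.

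The same calculation gave smaller shifts among the synthetases. *Acsl1* made up 77.6% ± 0.350 of ACSL counts per kilobase in WT and 73.7% ± 0.548 in MLX KO testes (SD, n = 3). *Acsl4* went from 1.49% ± 0.101 to 2.94% ± 0.377 and *Acsl5* from 3.01% ± 0.101 to 4.22% ± 0.141 (SD, n = 3). The share of *Acsl3* gained 0.489 percentage points and that of *Acsl6* gained 0.733. Neither gene rose itself, with LFCs of -0.07 for *Acsl3* and -0.22 for *Acsl6*, so these shares grew only relative to *Acsl1*. The genotypes did not overlap for any of the 5, with p = 0.1 for each in the exact permutation test.

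Inside the mitochondrion most genes rose. The 20 genes of the acyl-CoA dehydrogenases, the later steps, the isomerases and reductase for unsaturated chains and electron transfer included 16 that were higher and 1 that was lower, and their median LFC was 0.73. Of all genes tested, 24.8% were higher and 20.6% were lower. The 16 ranged from an LFC of 0.28 to 0.99. The summed level of the 20 was 824, 862 and 845 CPM in WT against 989, 1070 and 1030 CPM in MLX KO testes. Without *Hadha* and *Hadhb*, the most abundant of the 20, the sum was 350, 367 and 353 CPM in WT against 511, 618 and 567 CPM in MLX KO testes. The groups did not overlap in either sum. The Sertoli, Leydig and macrophage markers rose in the same libraries, and their part in this was not tested.

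Acyl-CoA dehydrogenases take the first step, each for its own chain length, and 6 of 8 were higher with 0 lower. *Acadl*, for long chains, had 455, 399 and 435 counts in the WT libraries against 693, 901 and 790 in those of MLX KO. The groups were well apart, at 24.6 ± 0.697 and 42.5 ± 7.07 CPM (SD, n = 3), with an LFC of 0.79 (SE 0.11, adjusted p = 0.000200). *Acadm*, for medium chains and the enzyme lacking in the commonest inherited defect of this pathway, had 342, 291 and 341 counts in the WT libraries against 539, 688 and 613 in those of MLX KO. It too did not overlap between genotypes, with means of 18.6 ± 0.603 and 32.8 ± 5.14 CPM (SD, n = 3) and an LFC of 0.82 (SE 0.11, adjusted p = 0.000160).

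*Acads*, for short chains, had 217, 188 and 198 counts in the WT libraries against 332, 380 and 349 in those of MLX KO (LFC 0.71, SE 0.10, adjusted p = 0.000231). *Acadsb*, which acts on short branched chains, had 574, 493 and 542 counts in the WT libraries against 797, 1087 and 1005 in those of MLX KO (LFC 0.74, SE 0.11, adjusted p = 0.000423). For both genes all MLX KO libraries were above WT, and KO1 was the lowest of them. *Acadvl*, for very long chains, had the highest level of the dehydrogenases per kilobase, 13.5 CPM in WT. It had 541, 462 and 528 counts in the WT libraries against 713, 801 and 786 in those of MLX KO (LFC 0.48, SE 0.08, adjusted p = 0.000501), also without overlap. Of its exon bases 42.9% overlap *Dvl2* on the opposite strand, and whether the counting used strand is not given in the sources used here.

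*Acad9*, known mainly for assembly of respiratory complex I, was higher by an LFC of 0.32 (adjusted p = 0.0120). The less studied *Acad10* and *Acad11* had LFCs of 0.17 (adjusted p = 0.382) and -0.02 (adjusted p = 0.843). The summed level of the 8 dehydrogenases was 167 ± 0.965 CPM in WT and 243 ± 28.7 CPM in MLX KO testes (SD, n = 3).

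**Figure D5:**
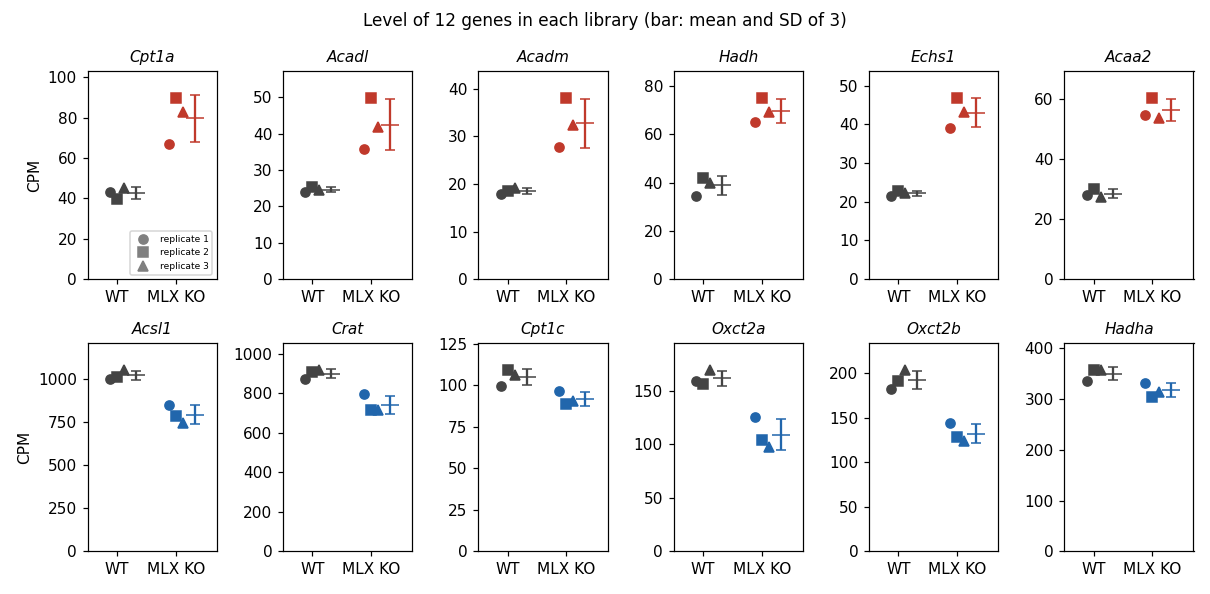
CPM (y axis, from 0) of 12 genes in each WT and MLX KO library, with circles, squares and triangles for replicates 1, 2 and 3 and a bar for the mean and SD of 3. In the upper row, which starts with Cpt1a and ends with Acaa2, all MLX KO libraries lie above WT, and in the lower row, which starts with Acsl1 and ends with Hadha, all lie below.

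Of the 6 genes for the later steps 4 were higher, and the largest LFCs of all 47 genes were here. *Acaa2*, the matrix thiolase that cuts off acetyl-CoA, had 533, 474 and 484 counts in the WT libraries against 1065, 1094 and 1019 in those of MLX KO. The MLX KO libraries lay close together and far above WT, at 56.5 ± 3.55 against 28.5 ± 1.47 CPM (SD, n = 3), a 1.98-fold rise (LFC 0.99, SE 0.07, adjusted p = 3.63e-06). *Echs1*, the short-chain enoyl-CoA hydratase, had 406, 359 and 393 counts in the WT libraries against 758, 845 and 816 in those of MLX KO (LFC 0.96, SE 0.08, adjusted p = 9.24e-06). *Hadh*, the 3-hydroxyacyl-CoA dehydrogenase for medium and short chains, had 651, 661 and 709 counts in the WT libraries against 1262, 1356 and 1308 in those of MLX KO (LFC 0.85, SE 0.08, adjusted p = 2.22e-05). Neither gene overlapped between genotypes. *Hsd17b10*, a dehydrogenase of branched chains that also serves mitochondrial RNase P, was less abundant, with 103, 125 and 114 counts in the WT libraries against 187, 291 and 241 in those of MLX KO. All MLX KO libraries were above WT, with a wide spread among them (LFC 0.96, SE 0.19, adjusted p = 0.00189).

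*Hadha* and *Hadhb* encode the subunits of the mitochondrial trifunctional protein, which carries out the same steps on long chains. *Hadha* had 6341, 5593 and 6314 counts in the WT libraries against 6410, 5502 and 5936 in those of MLX KO. After adjustment with TMM factors the genotypes were narrowly apart, at 349 ± 12.4 and 316 ± 13.3 CPM (SD, n = 3), and the LFC was -0.14 (SE 0.05, adjusted p = 0.0430). With the pair as a block the adjusted p was 0.0857, and the call was also lost without WT2, WT3, KO2 or KO3 (0.122 to 0.177). With library size alone the LFC was 0.00. *Hadhb* had an LFC of 0.09 (adjusted p = 0.126), although its 3 MLX KO libraries were above WT, and 18.1% of its 50-base stretches also occur in *Gm13910*. The count ratio of *Hadhb* to *Hadha*, a comparison chosen after the values were seen, was 0.418, 0.393 and 0.380 in WT against 0.446, 0.490 and 0.461 in MLX KO testes.

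These 2 genes face away from each other on chromosome 5 and share 1 stretch of promoter, which is shown because their counts did not move alike. It lies between their start sites at chr5:30154981-30155252 of GRCm38.p6 (the build also called mm10), is 272 bases long and is printed on the plus strand, with *Hadha* to its left and *Hadhb* to its right. Capitals mark 2 GC boxes (GGGCGG).
Hadha-Hadhb shared stretch: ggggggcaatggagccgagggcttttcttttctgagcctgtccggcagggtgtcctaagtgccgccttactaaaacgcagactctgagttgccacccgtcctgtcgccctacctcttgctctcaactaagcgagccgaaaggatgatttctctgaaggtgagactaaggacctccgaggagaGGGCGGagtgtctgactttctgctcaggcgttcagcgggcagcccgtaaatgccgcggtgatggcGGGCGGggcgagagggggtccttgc

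The 3 auxiliary enzymes for unsaturated chains all rose by nearly the same LFC. *Eci1*, an enoyl-CoA isomerase, had 81, 75 and 70 counts in the WT libraries against 141, 150 and 133 in those of MLX KO (LFC 0.80, SE 0.14, adjusted p = 0.000810). *Eci2*, a second isomerase, had 160, 133 and 157 counts in the WT libraries against 238, 292 and 318 in those of MLX KO (LFC 0.81, SE 0.13, adjusted p = 0.000473). *Decr1*, the dienoyl-CoA reductase, had 158, 152 and 150 counts in the WT libraries against 274, 267 and 319 in those of MLX KO (LFC 0.79, SE 0.11, adjusted p = 0.000213). In each the genotypes were apart in all libraries, and the summed level of the 3 went from 21.7 ± 1.01 to 37.9 ± 3.72 CPM (SD, n = 3).

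All 3 genes of electron transfer rose as well. *Etfa*, a subunit of the electron transfer flavoprotein, had 520, 424 and 445 counts in the WT libraries against 728, 755 and 728 in those of MLX KO (LFC 0.57, SE 0.07, adjusted p = 0.000111). *Etfdh*, which passes its electrons to ubiquinone, had 419, 358 and 366 counts in the WT libraries against 613, 676 and 678 in those of MLX KO (LFC 0.68, SE 0.08, adjusted p = 9.17e-05). *Etfb*, the partner subunit, had 443, 376 and 394 counts in the WT libraries against 494, 543 and 549 in those of MLX KO (LFC 0.28, SE 0.08, adjusted p = 0.0140). None of the 3 overlapped between genotypes. The call for *Etfb* was lost without WT3 or KO2 (adjusted p of 0.0539 and 0.0569), and 58.2% of its exon bases lie also in other genes, most in *Gm45233* on the same strand.

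Of 7 genes of peroxisomal oxidation 3 were higher and 0 were lower, beside 24.8% and 20.6% of all genes tested. *Ehhadh*, the L-bifunctional enzyme and a classic target of the nuclear receptor PPAR alpha, had only 38, 38 and 29 counts in the WT libraries against 61, 76 and 72 in those of MLX KO. The groups did not overlap, at 2.02 ± 0.391 and 3.72 ± 0.535 CPM (SD, n = 3), with an LFC of 0.89 (SE 0.20, adjusted p = 0.00481). *Acaa1a*, a peroxisomal thiolase, had 91, 101 and 94 counts in the WT libraries against 134, 170 and 159 in those of MLX KO (LFC 0.59, SE 0.16, adjusted p = 0.00984). Its relative *Acaa1b* had an LFC of -0.15 (adjusted p = 0.724) at about 1 CPM, and 12.4% of the 50-base stretches of *Acaa1a* and 30.5% of those of *Acaa1b* occur in the other gene. *Acaa1a* took 84.1% ± 5.90 of ACAA1 counts per kilobase in WT and 89.9% ± 0.394 in MLX KO testes (SD, n = 3), with overlap (p = 0.4, exact permutation test).

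*Hsd17b4*, the D-bifunctional enzyme, was the most abundant peroxisomal gene per kilobase. It had 987, 791 and 935 counts in the WT libraries against 1168, 1093 and 1130 in those of MLX KO. All MLX KO libraries were above WT, by a small LFC of 0.22 (SE 0.05, adjusted p = 0.00444). *Acox3*, an oxidase for branched chains, had an LFC of 0.01 (adjusted p = 0.918), and *Decr2*, the peroxisomal reductase, one of 0.13 (adjusted p = 0.418). *Acox2*, which acts on branched chains and bile acid intermediates, had 2, 0 and 4 counts in the WT libraries against 3, 0 and 3 in those of MLX KO, too few to be tested.

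Among the ketone body genes, those of SCOT split by isozyme. *Oxct2a* and *Oxct2b* encode the forms of SCOT found in spermatids and sperm, and they fell most of all 47 genes. *Oxct2a* had 3014, 2445 and 3003 counts in the WT libraries against 2422, 1883 and 1844 in those of MLX KO. The genotypes were well apart, at 161 ± 7.22 and 109 ± 14.3 CPM (SD, n = 3), with an LFC of -0.57 (SE 0.08, adjusted p = 0.000280). *Oxct2b* had 3451, 3004 and 3593 counts in the WT libraries against 2785, 2314 and 2346 in those of MLX KO. It too fell in every MLX KO library, from 192 ± 10.4 to 132 ± 10.3 CPM (SD, n = 3), an LFC of -0.54 (SE 0.06, adjusted p = 8.74e-05). The elongating spermatid markers, with a median LFC of -0.54, fell by a like amount in the same libraries, and their part in this was not tested.

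*Oxct1*, the SCOT gene of most other tissues, had 973, 791 and 958 counts in the WT libraries against 1018, 904 and 1080 in those of MLX KO. The groups overlapped at 51.9 ± 1.93 and 53.2 ± 3.64 CPM (SD, n = 3), and its LFC was 0.04 (SE 0.06, adjusted p = 0.657). Its share of OXCT counts per kilobase went from 6.78% ± 0.132 in WT to 9.93% ± 1.27 in MLX KO testes (SD, n = 3) without overlap (p = 0.1, exact permutation test). The shares of *Oxct2a* and *Oxct2b* differed by -1.90 and -1.24 percentage points, with overlap (exact permutation p = 0.2 for each). Reads are not easily assigned between these copies: 41.7% of the 50-base stretches of *Oxct2a* occur in *Oxct2b* and 42.3% the other way, so the split between them is uncertain.

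Both copies lie on chromosome 4, and their promoters are shown because their counts fell alike. As reads are not easily assigned between the copies, these falls are not fully separate observations. The stretches are the 250 bases before each start site, for *Oxct2a* at chr4:123323680-123323929 on the minus strand and for *Oxct2b* at chr4:123115998-123116247 on the plus strand of GRCm38.p6, each printed along its gene's strand. Capitals mark runs of at least 15 bases found in both, which cover 98 bases of each and reach 33 bases. Neither holds a GC box or a CCAAT box.
Oxct2a promoter: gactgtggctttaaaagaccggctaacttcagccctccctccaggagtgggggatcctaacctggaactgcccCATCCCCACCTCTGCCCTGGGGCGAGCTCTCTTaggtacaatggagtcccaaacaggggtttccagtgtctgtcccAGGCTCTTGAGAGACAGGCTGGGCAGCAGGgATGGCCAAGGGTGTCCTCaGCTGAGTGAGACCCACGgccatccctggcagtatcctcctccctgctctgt
Oxct2b promoter: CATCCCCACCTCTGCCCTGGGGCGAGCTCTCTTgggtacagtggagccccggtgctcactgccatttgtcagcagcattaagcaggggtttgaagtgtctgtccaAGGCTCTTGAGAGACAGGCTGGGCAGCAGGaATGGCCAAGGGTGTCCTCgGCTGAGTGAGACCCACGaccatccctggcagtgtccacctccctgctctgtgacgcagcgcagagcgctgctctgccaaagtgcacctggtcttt

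*Acat1*, the mitochondrial acetoacetyl-CoA thiolase that follows SCOT, was higher by an LFC of 0.43 (adjusted p = 0.00222). *Bdh1*, which turns hydroxybutyrate into acetoacetate, had 364, 295 and 286 counts in the WT libraries against 452, 491 and 305 in those of MLX KO. KO3 lay within the WT range and the other MLX KO libraries above it, so the groups overlapped (LFC 0.30, SE 0.16, adjusted p = 0.141). With the pair as a block *Bdh1* was called higher (LFC 0.28, adjusted p = 0.0305), and without KO3 its LFC was 0.49 (adjusted p = 0.00587). *Bdh2*, a cytosolic relative, had an LFC of 0.16 (adjusted p = 0.668) at about 1 CPM. The coactivator *Ppargc1a*, which drives mitochondrial genes in other tissues, was scarce, with 73, 42 and 64 counts in the WT libraries against 52, 54 and 51 in those of MLX KO, and its groups overlapped (LFC -0.28, SE 0.19, adjusted p = 0.238).

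With the pair as a block over all genes, 26 of the 46 genes tested were higher and 7 were lower, beside 25.5% and 20.5% of all genes. *Cpt2* and *Hadha* were lost and *Bdh1* was gained, and no other call changed.

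Promoter sequence was searched for letters that transcription factors of this pathway are known to bind. RefSeq promoter windows of GRCm38.p6, from 250 bases before to 50 after a start site, were at hand for 40 of the 47 genes, in 45 windows. The E-box CACGTG, the core of sites bound by MLX and its partners, was in 0 of the 45 windows and in 7.15% of all 32851 windows, on either strand. TGACGTCA, the cyclic AMP response element, was in 0 of 45 and in 1.79% of all windows. TCAAGGTCA, bound by estrogen-related receptors, was in that of *Acsl6* alone and in 0.423% of all windows, and the direct-repeat element bound by PPARs was in 0 of 45 and in 0.040% of all. These are letter matches in short windows and say nothing about binding elsewhere.

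Common promoter boxes were more frequent. In the 250 bases before the start site, the GC box GGGCGG on either strand was in 27 of 45 windows and in 32.7% of all windows, and CCAAT on either strand was in 20 of 45 and in 33.8% of all. The promoters of *Cpt1a* (chr19:3323051-3323300, plus strand) and *Acadl* (chr1:66863310-66863559, minus strand) are printed along their gene's strand because both genes rose clearly. The annotated *Cpt1a* gene begins at chr19:3322326, so its printed stretch lies inside the gene, before a later start site. Capitals mark GC boxes, here all in the complementary form CCGCCC, and CCAAT boxes. The first holds 2 GC boxes and 1 CCAAT box, and the second holds 4 GC boxes and 0 CCAAT boxes.
Cpt1a promoter: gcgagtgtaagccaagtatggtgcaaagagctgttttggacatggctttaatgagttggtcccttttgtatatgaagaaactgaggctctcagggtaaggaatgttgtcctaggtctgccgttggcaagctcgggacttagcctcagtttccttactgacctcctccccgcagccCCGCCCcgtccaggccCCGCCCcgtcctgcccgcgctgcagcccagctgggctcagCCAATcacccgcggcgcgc
Acadl promoter: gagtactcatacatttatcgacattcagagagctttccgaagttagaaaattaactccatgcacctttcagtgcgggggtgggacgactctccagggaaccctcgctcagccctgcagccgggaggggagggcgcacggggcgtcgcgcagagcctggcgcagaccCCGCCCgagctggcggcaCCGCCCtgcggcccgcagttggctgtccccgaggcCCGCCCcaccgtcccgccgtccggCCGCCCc

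Other genes of this pathway and of related ones, such as the breakdown of branched-chain amino acids, were listed beside these 47. Of 52 such genes, 51 had a row and 50 were tested, with 30 higher, 6 lower and a median LFC of 0.51. Over all genes tested 24.8% were higher and 20.6% were lower. For uptake and binding of fatty acids, *Cd36* had an LFC of 1.13 (adjusted p = 0.000254) and *Fabp3* one of 1.49 (adjusted p = 7.03e-06). *Ppara*, the receptor that controls many of these genes in liver, had an LFC of 0.91 (adjusted p = 0.00165). It was scarce, at 4.11 ± 0.250 CPM in WT and 7.75 ± 1.71 CPM in MLX KO testes (SD, n = 3). Other regulators on the list were split. *Ppard* (LFC 0.64, adjusted p = 0.00928) and *Ppargc1b* (0.71, adjusted p = 0.0363) were higher. *Pparg* (-0.19, adjusted p = 0.580) and *Esrra* (-0.15, adjusted p = 0.153) were not called.

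The abundant genes of that list were again split. *Acsbg1*, an acyl-CoA synthetase of the bubblegum family, rose from 156 ± 8.96 to 325 ± 67.8 CPM (SD, n = 3; LFC 1.06, adjusted p = 8.11e-05). *Acsbg2*, its relative known from testis, fell from 364 ± 16.8 to 299 ± 29.9 CPM (SD, n = 3; LFC -0.28, adjusted p = 0.00685). Of the 3 transporters on the list that belong to the family of *Slc22a5*, 2 fell. *Slc22a16*, the testis carnitine transporter CT2, had an LFC of -0.32 (adjusted p = 0.00153), and *Slc22a21*, OCTN3, one of -0.39 (adjusted p = 0.00126). *Slc22a4*, OCTN1, had an LFC of -0.07 (adjusted p = 0.862). *Bbox1*, the last enzyme of carnitine synthesis, was scarce and fell by 0.66 on the log2 scale (adjusted p = 0.0164), while *Aldh9a1*, which acts just before it, was higher (LFC 0.19, adjusted p = 0.0334). Acetyl-CoA carboxylases make malonyl-CoA, which inhibits CPT1, and their genes were split. *Acaca* was lower (LFC -0.26, adjusted p = 0.0131). *Acacb*, the acetyl-CoA carboxylase of the mitochondrial surface, was higher (LFC 0.32, adjusted p = 0.0432), and *Mlycd*, which breaks malonyl-CoA down, had an LFC of 0.16 (adjusted p = 0.371).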

How the data were processed

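The authors aligned reads to mm10 with TopHat and deposited counts: whole reads for each gene symbol in each library, without normalization. The counting tool, annotation and strand setting are not given in the sources used here. The deposited table also holds the authors' own comparison (a mean, log2 fold changes, standard errors, a test statistic, p-values), which was not used. ChIP-seq samples were not analysed here. The 6 libraries held between 16674678 and 19742726 counts.

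Of 17933 rows, 2 repeated another. edgeR 4.0.16 in R 4.3.3 was run with its filter on low counts (minimum 10), TMM factors, genotype as the only term, the two-sided quasi-likelihood test and Benjamini-Hochberg adjustment over 14640 genes, at a threshold of 0.05. The LFC in the text is the fitted value. The code was tested on simulated data. Alternatives were DESeq2 1.42.0, other scaling factors (DESeq2's, upper-quartile, library size alone), no filter, a filter of 1 CPM in 3 libraries, a block for the littermate pair (edgeR, DESeq2), and each library left out. Replicate numbers mark littermate pairs per the labels and the study's methods. Deviations from group means correlated across genes at 0.145, 0.0363 and 0.121 within pairs and from -0.123 to 0.033 between other libraries. No libraries were duplicates (chi-square over degrees of freedom was 2.73 to 8.26). The p-values set the difference between genotypes against the spread within each genotype among these 6 libraries.

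Levels per kilobase use the principal transcript in GENCODE, in mm10 coordinates. The genes, gene lists and tests were chosen with earlier results of these data known. Of the lists, *Tmlhe* had no row and *Slc27a5*, 1 adipocyte and 3 skeletal muscle markers had too few counts. By rule every gene is named with its LFC, and counts per library are given for the 20 called genes with the largest absolute LFC, for *Cpt1a*, *Acadl* and *Crat*, for the other CPT1 and OXCT genes, for the gene with the highest level in each role group and for genes whose call changed under the block. Some genes of the other pathway list are counted but not reported here by name.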

Additional observations from a re-analysis of the deposited data

How the results depend on the processing

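Of the 34 called genes, 22 were past the threshold in all 14 alternatives (18 higher and 4 lower). The number higher ranged from 18 (DESeq2 with the replicate block) to 28 (library size alone), and from 22 to 25 when single libraries were left out. The number lower was 4 with library size alone and ranged from 5 to 8 when single libraries were left out, with 5 without KO2 and 5 without KO3. With library size alone the median LFC was 0.41, 2 of the other pathway genes were lower, and over all genes 5343 were higher and 1268 lower against 3634 and 3015. DESeq2 with the replicate block called 2193 higher over all genes. DESeq2 with or without the block did not call *Acsl5*, *Cpt2*, *Slc22a5*, *Acad9* or *Etfb*, and with the block it also did not call *Cpt1b*, *Ehhadh*, *Hsd17b4* or *Acaa1a*. The cause was not tested. The block in edgeR changed no call beyond *Cpt2*, *Hadha* and *Bdh1*.

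Genes near an LFC of 0 changed sign in some alternatives, none of them past the threshold: *Acsl3* (0.07 with library size alone, -0.11 to 0.02 without single libraries), *Slc25a20* (-0.01 with DESeq2's factors in edgeR, -0.02 in DESeq2 with and without the block, 0.00 to 0.03 without single libraries), *Acad11* (0.12 with library size alone, -0.06 to 0.04 without single libraries), *Acox3* (-0.02 with DESeq2's factors, and in DESeq2 with and without the block, -0.02 to 0.06 without single libraries), *Acaa1b* (-0.36 to 0.04) and *Oxct1* (-0.01 to 0.09), the last pair also without single libraries.

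Isozyme shares moved with the length used. Raw counts gave differences of 2.03 (*Acsl4*), 1.35 (*Acsl5*), 5.38 (*Oxct1*) and -2.49 (*Oxct2b*) percentage points. The length of all exons, an alternative chosen after seeing the data, gave -5.37 (*Cpt1b*), -6.45 (*Acsl1*), 3.28 (*Acsl4*), 2.30 (*Acsl5*) and 0.065 (*Acsl6*). Depth limits *Acox2*, which had too few counts to be tested.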
